A study of Mus musculus with 9 samples.

Results

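CCL17 and CCL22 are small secreted attractants of the CC chemokine family, and both act through the receptor CCR4. The transcripts of Ccl17 (thymus and activation regulated chemokine), Ccl22 (macrophage-derived chemokine) and Ccr4 were followed across 9 arrays of mouse lung RNA. They were taken as every probe set whose single gene symbol in the array's probe annotation is one of these names. Each gene has 1 probe set, so the account rests on 3 probe sets of 12422 that are not controls, and on 3 genes of 8251. All arrays hold total lung RNA of C57BL6 mice in an asthma model whose allergen is the egg-white protein ovalbumin (OVA). The groups are 3 arrays of OVA-challenged mice that received an EP3 agonist, 3 arrays of mice that received the OVA challenge alone, and 3 arrays of mice challenged with saline in its place. The titles of both OVA groups give a time of 24 h, and those of the saline group give none. EP3 is a receptor of prostaglandin E2. The labels name no sex, age or sensitization of the mice, and for the agonist no compound, dose or schedule. Nor do they say whether each array is 1 mouse, so p-values measure the spread between these arrays, which may be technical.

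CCL17 and CCL22 are made mainly by dendritic cells and by macrophages exposed to type 2 cytokines, and in the airways CCL17 is also made by epithelium. Interleukin-4 and interleukin-13 induce both genes through the transcription factor STAT6, and the growth factor GM-CSF induces Ccl17 in monocytes and macrophages through IRF4. CCR4 is a Gi-coupled receptor carried by T helper cells of the allergic type, regulatory T cells and skin-homing T cells, and the ligands draw these cells to inflamed lung and skin. The decoy receptor ACKR2 takes up and degrades both ligands, and the protease DPP4 trims the amino end of CCL22, which lowers its activity at CCR4. In mice Ccl22, Cx3cl1 and Ccl17 follow each other among the protein-coding genes of chromosome 8.

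The 250 bases upstream of the start of each ligand gene are printed to show the stretch next to 2 genes that lie in 1 cluster and share inducers. They come from RefSeq (GRCm38.p6), run 5′ to 3′ on the plus strand, and cover chr8:94810203-94810452 for Ccl17 and chr8:94745434-94745683 for Ccl22. Capitals mark matches of the 2 STAT patterns searched, and the last base adjoins the start.
Ccl17: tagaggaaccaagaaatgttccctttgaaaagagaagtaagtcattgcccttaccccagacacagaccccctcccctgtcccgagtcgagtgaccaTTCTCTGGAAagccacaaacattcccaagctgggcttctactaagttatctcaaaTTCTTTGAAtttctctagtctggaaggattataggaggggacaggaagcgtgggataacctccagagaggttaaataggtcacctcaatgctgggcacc
Ccl22: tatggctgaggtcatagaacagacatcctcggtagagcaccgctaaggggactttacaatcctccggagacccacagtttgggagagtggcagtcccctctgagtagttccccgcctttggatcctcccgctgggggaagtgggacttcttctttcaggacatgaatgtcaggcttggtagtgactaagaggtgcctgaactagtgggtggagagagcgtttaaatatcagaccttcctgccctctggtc
Both strands were searched for 6 patterns: TTCNNNNGAA (the spacing that STAT6 prefers) and TTCNNNGAA for STAT factors, TGANTCA for AP-1, TGACGTCA for the cAMP response element, TATAAA, and the NF-kB consensus. The Ccl17 window holds TTCNNNNGAA once, 154 to 145 bases before the start, and TTCNNNGAA once, 99 to 91 bases before it. The Ccl22 window holds none of the 6, which says only that these letters are not in this window. Of 32851 mouse promoter windows of this length, 5.85% hold TTCNNNNGAA, 7.02% hold TTCNNNGAA, 6.75% hold TGANTCA, 1.55% hold TGACGTCA, 12.4% hold TATAAA and 3.9% hold the NF-kB consensus. A match describes the letters and is not a measured binding site.

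Values are array intensities on a linear scale, brought to a common level between arrays. They can lie below 0, since some signal had been subtracted before deposition. Intensities of 44.7 or less count as below the detection limit, and values under a floor of 3.10 were raised to it before log2 was taken. On each array 59.6% to 60.6% of probe sets exceeded the limit, and replicate arrays correlated at 0.879 to 0.926. Of 9 lung epithelium markers on the array, all were above the limit on some array, with summed intensities of 41008 to 41444 in the agonist group, 29907 to 36398 in the OVA group and 37410 to 44398 in the saline group.

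Ccl17 was detected on all arrays of OVA-challenged lung and on none of the other 6. Its intensity was −49.0, −31.7 and −90.2 on the arrays of lung given OVA and the EP3 agonist. On the OVA arrays it was 655, 657 and 427. On the saline arrays it was −103, −115 and −112. The 3 OVA arrays stood far above all others, replicate 3 being the lowest of them, and the agonist and saline arrays all lay below the detection limit. The lowest OVA value exceeded the highest agonist value by 458 and the highest saline value by 529. As group means, Ccl17 came to −57.0 ± 30.1 with the agonist, 579.6 ± 132 with OVA and −109.8 ± 6.43 with saline (SD, n = 3 each).

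Ccl17 was at least 12.7-fold higher in OVA than in saline lung (limma, adjusted p = 4.44e-07). This bound is the geometric mean of the OVA arrays over the detection limit, because a dimmer group that lies wholly below the limit gives no measured fold. In this comparison 9.49% of the 7920 tested probe sets passed an adjusted p of 0.05, and 5.08% passed as higher. Of the 2 members that could be tested, Ccl17 passed and Ccl22 did not. The exact permutation test of the Ccl17 intensities, which uses neither the floor nor the shared spread, gave p = 0.1 (two-sided, n = 3 each), the smallest p that 3 arrays against 3 allow.

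Ccl17 was at least 12.7-fold lower in lung given OVA and the EP3 agonist than in OVA lung (limma, adjusted p = 4.44e-07; exact permutation p = 0.1, n = 3 each). Here 2.75% of tested probe sets passed, 1.5% as lower, and Ccl17 was again the member that passed. This comparison shares its OVA arrays with the one against saline, so both results rest on the same 3 bright values. All 6 dim arrays lay at the floor, where the log2 values have no spread, and the limma p-values therefore leave that spread out.

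Between agonist and saline lung Ccl17 gave no measurable change, since all 6 arrays were at the floor (log2 change 0, adjusted p = 1). In this comparison 0.0758% of tested probe sets passed, and of the 2 tested members 0 passed. The agonist intensities were all less negative than the saline ones (exact permutation p = 0.1, n = 3 each), but values below the detection limit have no order that can be read as expression. Ccl17 passed against OVA with agonist replicate 1, 2 or 3 left out, and with any saline array left out, with adjusted p up to 1.63e-05 over both comparisons. All 6 of those arrays lay at the floor, so leaving 1 out kept its group's log2 mean there, and these fits are no check. Without an OVA array Ccl17 no longer had 3 arrays above the limit and was not tested. With that filter set to 2 arrays, chosen after seeing the data, it passed without each OVA array, with adjusted p up to 1.11e-05.

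**Figure D1:**
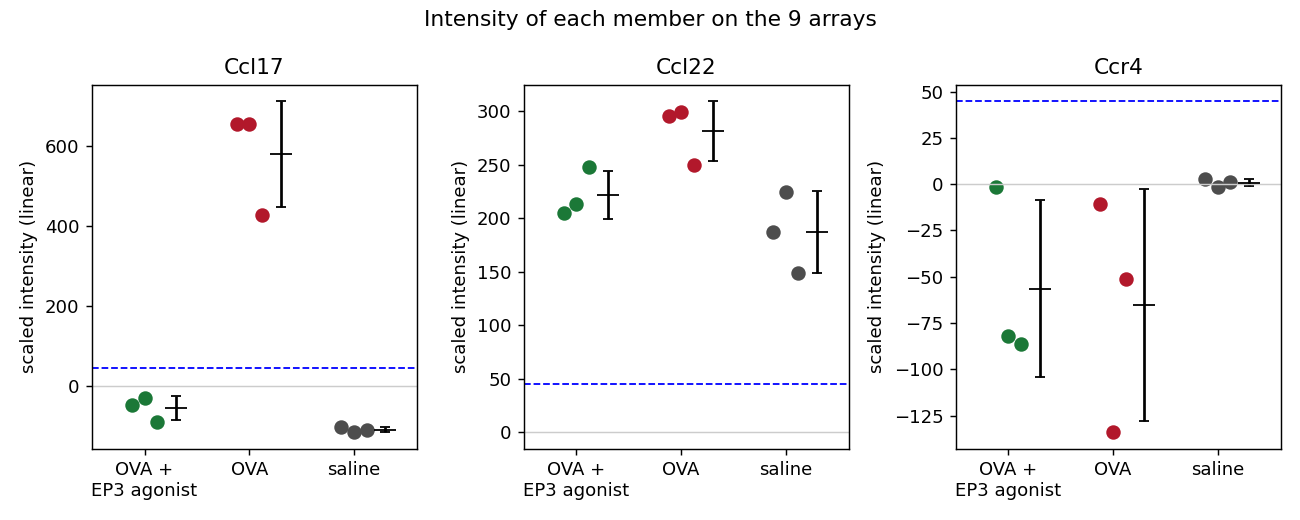
Scaled intensity (linear, y axes differ) of Ccl17, Ccl22 and Ccr4 on each array of the OVA plus EP3 agonist, OVA and saline groups. Points are arrays, the bars beside them give mean ± SD of 3 arrays, and the dashed line is the detection limit of 44.7; Ccl17 exceeds it on the OVA arrays alone, Ccl22 on all arrays and Ccr4 on none.

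Ccl22 was detected on every array and varied far less than Ccl17. It read 205, 213 and 248 on the agonist arrays. It read 296, 299 and 249 on the OVA arrays. It read 188, 225 and 149 on the saline arrays. The OVA arrays were the 3 highest, although OVA replicate 3 lay only just above agonist replicate 3, and the agonist and saline arrays overlapped. The group means were 222 ± 22.5 with the agonist, 281 ± 27.8 with OVA and 187 ± 37.9 with saline (SD, n = 3 each).

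Ccl22 was 1.52 times as high in OVA as in saline lung, a log2 change of 0.60 ± 0.16 (SE) with a 95% interval of 0.22 to 0.99. The change did not pass (limma, p = 0.00669, adjusted p = 0.0595; exact permutation p = 0.1, n = 3 each). The OVA and saline arrays did not overlap, which was so in this direction for 15.5% of tested probe sets. Ccl22 lay near the threshold: it passed with a floor at the 40th percentile (adjusted p = 0.0481), with a filter at the 60th percentile (adjusted p = 0.0383) and with an intensity trend and a robust prior together (adjusted p = 0.0433). It did not pass with any 1 array left out, where adjusted p was 0.0610 to 0.171.

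Between agonist and OVA lung the log2 change of Ccl22 was −0.34, with a 95% interval of −0.72 to 0.04, and it did not pass (limma, adjusted p = 0.251). Every agonist array lay below every OVA array, as did 12% of tested probe sets. Taken by replicate number, the differences were −0.53, −0.49 and −0.01, the last between the replicates numbered 3. With agonist replicate 3 left out the log2 change was −0.42 (adjusted p = 0.204). Between agonist and saline lung it was 0.26, with a 95% interval of −0.12 to 0.64 (adjusted p = 0.753; exact permutation p = 0.3, n = 3 each), with overlapping arrays. These intervals reach down to 0.606 times the OVA level and up to 1.56 times the saline level.

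**Figure D2:**
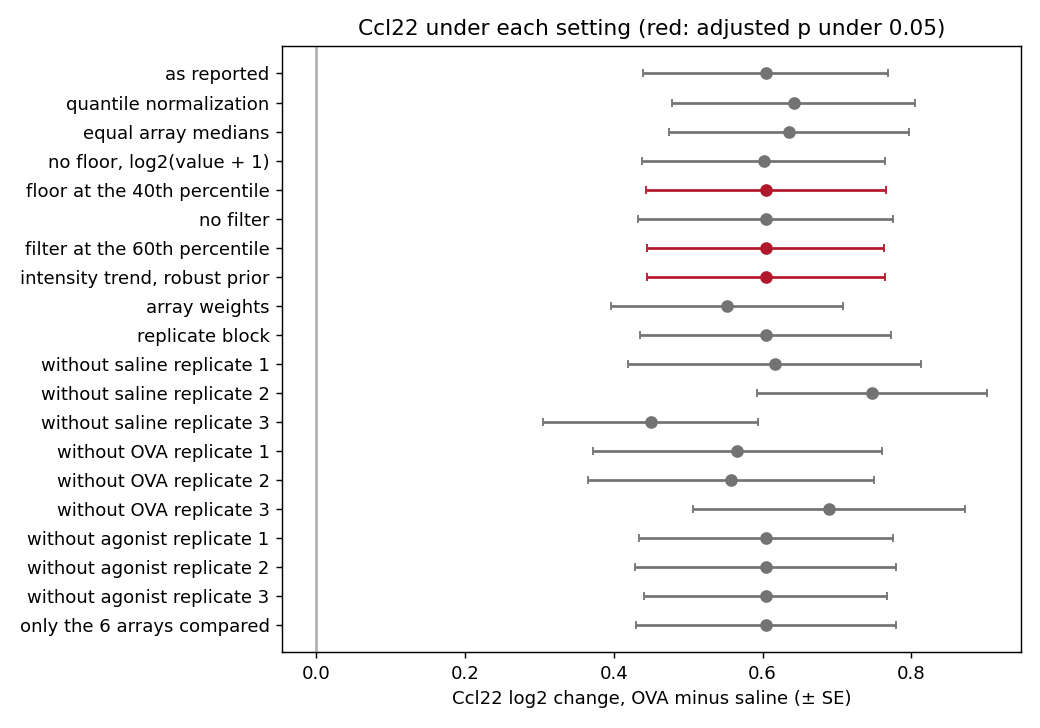
Log2 change of Ccl22, OVA minus saline, under each processing setting (points, with bars of ± SE on the x axis). The change stays between 0.45 and 0.75 in every setting, and adjusted p falls under 0.05 in 3 of them, drawn in red.

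Ccr4 was below the detection limit on all 9 arrays and was not tested. The receptor read −1.40, −82.1 and −86.1 on the agonist arrays. It read −10.8, −134 and −51.1 on the OVA arrays. It read 2.58, −1.38 and 1.46 on the saline arrays. All 9 values lay at or below the floor of 3.10, so no group can be called higher or lower than another. The exact permutation tests of these intensities gave p = 0.1 for OVA against saline, 0.9 for agonist against OVA and 0.1 for agonist against saline (n = 3 each). A signal below the limit does not show that the transcript was absent from the lung.

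Across the 9 arrays the intensities of Ccl17 and Ccl22 correlated with Pearson's r of 0.835 and Spearman's rho of 0.75, as a description of 9 arrays that share 3 group levels. The probe sets most like Ccl17 over the 9 arrays by Pearson's r were those of the gluconeogenic enzyme Fbp1 (0.997), the macrophage elastase Mmp12 (0.991 and 0.990, 2 probe sets), the tetraspanin Cd63 (0.985), the cytochrome oxidase subunit Cox5b (0.984) and the chromatin assembly factor subunit Chaf1a (0.984). Those most like Ccl22 were Ncf4 of the phagocyte oxidase (0.965), the cytochrome oxidase subunit Cox6a1 (0.961), the Toll-like receptor partner Ly86 (0.959), the translocon-associated Ssr3 (0.958), the actin-severing cofilin Cfl1 (0.956) and the oxysterol hydroxylase Cyp7b1 (0.953). With 3 group levels these values mostly order group means. For Ccr4 no likeness is given, because its values lie below the limit.

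Few probe sets shared the detection pattern of Ccl17. Of the 12422, 33 (0.266%) were above the limit on all OVA arrays and on none of the other 6, against 2 (0.0161%) for the agonist arrays alone and 8 (0.0644%) for the saline arrays alone. Among the 33 were the lipoxygenase Alox15, the transcription factor Irf4 and the monocyte attractants Ccl2 and Ccl7. Alox15, which oxidizes arachidonic and linoleic acid and is induced by interleukin-4 and interleukin-13, read 2.92, −24.9 and −26.3 with the agonist, 213, 273 and 106 with OVA and −28.3, −33.1 and −35.6 with saline. It was at least 4.10-fold higher in OVA than in saline lung (adjusted p = 0.000106) and at least 4.10-fold lower with the agonist than with OVA (adjusted p = 7.98e-05). All its agonist and saline values lay below the floor, so these limma p-values leave their spread out.

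**Figure D3:**
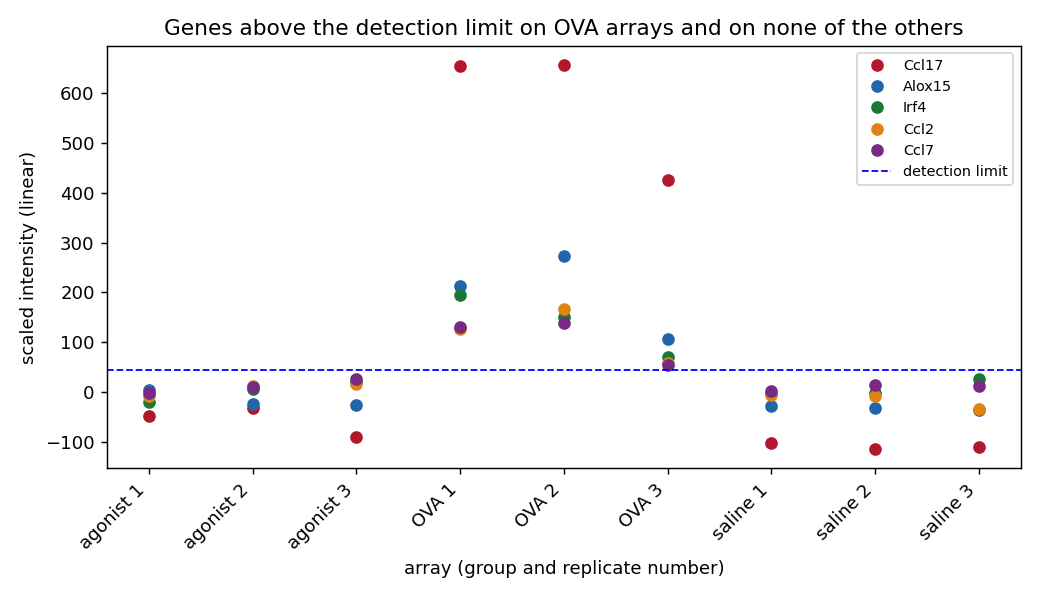
Scaled intensity (linear, y axis) of Ccl17, Alox15, Irf4, Ccl2 and Ccl7 on each of the 9 arrays (x axis, by group and replicate number); levels of different genes cannot be set against each other. All 5 lie above the detection limit (dashed) on the 3 OVA arrays and below it on the 3 agonist and 3 saline arrays.

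A few of the genes upstream of the ligands rose with OVA. Of 27 listed cytokines, receptors and transcription factors, 20 are on the array and 14 were tested. Between OVA and saline lung 3 rose and 0 fell, with a median log2 change of 0.38 beside −0.08 over all tested probe sets. Between agonist and OVA lung 0 passed, with a median of −0.35 beside 0.06. For comparison, 5.08% of all tested probe sets rose with OVA, and 2.75% passed for agonist against OVA. The 3 that rose were Irf4, Csf2ra and Nfkb2.

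Irf4, the factor through which GM-CSF acts on Ccl17, read −20.1, 6.10 and 20 with the agonist. It read 196, 149.7 and 71.0 with OVA and −3.26, −2.23 and 26.7 with saline. Like Ccl17 it was above the limit on the OVA arrays alone, and it was at least 2.86-fold higher than in saline lung (adjusted p = 0.0372). The difference between agonist and OVA had adjusted p = 0.0664 and did not pass. The OVA call of Irf4 was lost without saline replicate 1 or 2 or agonist replicate 2, and the gene was not tested without an OVA array.

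Csf2ra, the alpha chain of the GM-CSF receptor, averaged 294 ± 43.8 in OVA and 121 ± 32.0 in saline lung (log2 change 1.31, adjusted p = 0.0464), a call lost without any saline array, any OVA array or agonist replicate 1. Its partner Csf2rb passed the limit on 2 of 9 arrays and was not tested. Csf2rb2, a separate mouse gene close to Csf2rb in sequence, had a log2 change of 0.82 by its brighter probe set (limma, adjusted p = 0.0521). The other probe set of Csf2rb2 was below the limit on every array. Nfkb2, the p100 subunit of noncanonical NF-kB, averaged 102 ± 3.32 and 44.5 ± 6.37 in OVA and saline lung (log2 change 1.21, adjusted p = 0.0226), a call lost without any saline array or OVA replicate 1 or 2. Its partner Relb had a log2 change of 1.12 (adjusted p = 0.0878).

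The receptor and factor through which interleukin-4 acts on both ligands showed no passing change between OVA and saline. Stat6 averaged 421 ± 46.5 in agonist, 361.5 ± 24.9 in OVA and 398 ± 50.7 in saline lung. The log2 change of Stat6 was −0.13 for OVA against saline (adjusted p = 0.525) and 0.22 for agonist against OVA (adjusted p = 0.341). Il4ra, the interleukin-4 receptor chain, averaged 173 ± 54.7, 198 ± 27.4 and 175 ± 41.3 in agonist, OVA and saline lung by its brighter probe set, with adjusted p = 0.676 for OVA against saline and 0.632 for agonist against OVA. Its other probe set disagreed, on means near the detection limit of 54.3 ± 7.74 in agonist, 31.6 ± 3.33 in OVA and 47.4 ± 6.92 in saline lung. By this probe set the log2 change was 0.78 for agonist against OVA, which passed (limma, adjusted p = 0.0448). For OVA against saline it was −0.58, just short of the threshold (limma, adjusted p = 0.0520). Il4 itself was above the limit on 0 arrays and Il13 on 2.

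Most of the other tested genes that interleukin-4 and interleukin-13 are known to induce rose with OVA. Of 20 listed, 12 are on the array and 11 were tested. Between OVA and saline lung 7 rose and 0 fell (median log2 change 1.73), and between agonist and OVA lung 0 rose and 3 fell (median −0.95). The 7 were Arg1, Chil3, Mrc1, Ccl11, Ccl8, Alox15 and Mmp12, and the 3 that fell with the agonist were Alox15, Ccl11 and Mmp12. Among all tested probe sets 5.08% rose with OVA and 1.5% fell with the agonist, with median log2 changes of −0.08 and 0.06. Arg1, the arginase of alternatively activated macrophages, was at least 8.83-fold higher in OVA than in saline lung (adjusted p = 0.00949). With the agonist its log2 change against OVA was −3.77 (adjusted p = 0.0544), which did not pass.

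Ccl11, the eosinophil attractant eotaxin, read 9.68, 2.44 and 66.5 with the agonist, 598, 619.8 and 261 with OVA and 8.33, 7.12 and 8.01 with saline. Agonist replicate 3 was the one array outside the OVA group above the limit. Mmp12 had a log2 change of 4.17 between OVA and saline (adjusted p = 0.00263) and of −2.79 between agonist and OVA (adjusted p = 0.0225) by its brighter probe set. Its other probe set was at least 26.7-fold higher in OVA than in saline lung (adjusted p = 0.00934) but did not pass for agonist against OVA (log2 change −3.76, adjusted p = 0.0565). The rises of Arg1, Alox15 and Mmp12 with OVA passed with each array left out for which they could be tested, and those of Ccl11 and Ccl8 were lost without any saline array or OVA replicate 1 or 2. Of the 3 falls with the agonist, that of Alox15 passed with each saline or agonist array left out. All saline and agonist values of Alox15 lay below the floor, so these fits are no check of its rise or its fall. That of Ccl11 passed only without agonist replicate 3, and that of Mmp12 was lost without saline replicate 1, OVA replicate 1 or 2, or agonist replicate 1 or 2.

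Most of the other CC chemokine ligands tested rose with OVA. Of 18 listed, 12 are on the array and 9 were tested, and 2 of them (Ccl8 and Ccl11) also stand in the interleukin-4 list. Between OVA and saline lung 6 rose and 0 fell (median log2 change 3.64), and between agonist and OVA lung 0 rose and 2 fell (median −2.27). Several of these genes lay below the detection limit outside the OVA group, and with all values held at that limit the medians were 1.26 and −1.16. The 6 were Ccl2, Ccl6, Ccl7, Ccl8, Ccl9 and Ccl11, and the 2 that fell with the agonist were Ccl2 and Ccl11. As shares of all tested probe sets, 5.08% rose with OVA and 1.5% fell with the agonist. Ccl2 was at least 2.39-fold higher in OVA than in saline lung (limma, adjusted p = 0.00949). All its saline values lay below the floor, so the limma p-value of this rise leaves their spread out. With the agonist Ccl2 was at least 2.39-fold lower than with OVA (limma, adjusted p = 0.0381). This fall was lost without any saline array or agonist replicate 1 or 2. The rise of Ccl7 was lost without any saline array or agonist replicate 2, and that of Ccl9 without OVA replicate 1 or 2. The other 3 tested ligands, Ccl3, Ccl5 and the CCR8 ligand Ccl1, did not pass in either comparison.

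Among the other CC receptors 8 of 10 are on the array and 5 were tested. Between OVA and saline lung 1 rose and 0 fell, and between agonist and OVA lung 0 passed. The 1 was Ccr2, the receptor of monocyte attractants, at 388 ± 33.5 in OVA and 131 ± 40.3 in saline lung (log2 change 1.62, adjusted p = 0.0289), a call lost without any saline array or OVA replicate 1 or 2. Ccr8, which is carried with CCR4 on allergic T cells, was below the limit on every array, with means of −51.3 in agonist, −56.9 in OVA and −72.8 in saline lung. Of 24 listed genes that carry a Gi-coupled chemokine receptor's signal, 17 are on the array and 15 were tested. In either comparison 0 of them passed (medians −0.03 and 0.01). The shares of all tested probe sets that passed were 9.49% for OVA against saline and 2.75% for agonist against OVA. With 5 receptors and 15 signalling genes tested, these counts cannot be told apart from those shares and do not describe the genes as sets.

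Of the genes that bind away or trim the ligands, Ackr2 and Dpp4 fell with OVA and the other tested ones did not pass. Of 7 listed, 6 are on the array and 5 were tested. Between OVA and saline lung 0 rose and 2 fell (median log2 change −0.48), and between agonist and OVA lung 0 passed (median 0.20). Among all tested probe sets 4.42% fell with OVA, and 2.75% passed for agonist against OVA. Ackr2, the decoy receptor of both ligands, read 239, 213 and 215 with the agonist, 140.3, 167 and 165 with OVA and 203, 214 and 244 with saline. Dpp4, the protease that trims CCL22, read 132, 119.5 and 102 with the agonist, 77.2, 76.2 and 86.9 with OVA and 123, 111 and 116 with saline. For both genes the OVA arrays were the 3 lowest of the 9. Groups that did not overlap in this way were common: 22% of tested probe sets were lower on every OVA than on every saline array, and 17.8% were higher on every agonist than on every OVA array.

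Against saline, the log2 change with OVA was −0.48 for Ackr2 (adjusted p = 0.0381) and −0.54 for Dpp4 (adjusted p = 0.0310). Both calls were lost without any saline array, OVA replicate 1 or 2, or agonist replicate 2, and that of Ackr2 also without OVA replicate 3. For agonist against OVA the log2 changes were 0.50 for Ackr2 (adjusted p = 0.0580) and 0.55 for Dpp4 (adjusted p = 0.0522), and neither passed.

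**Figure D4:**
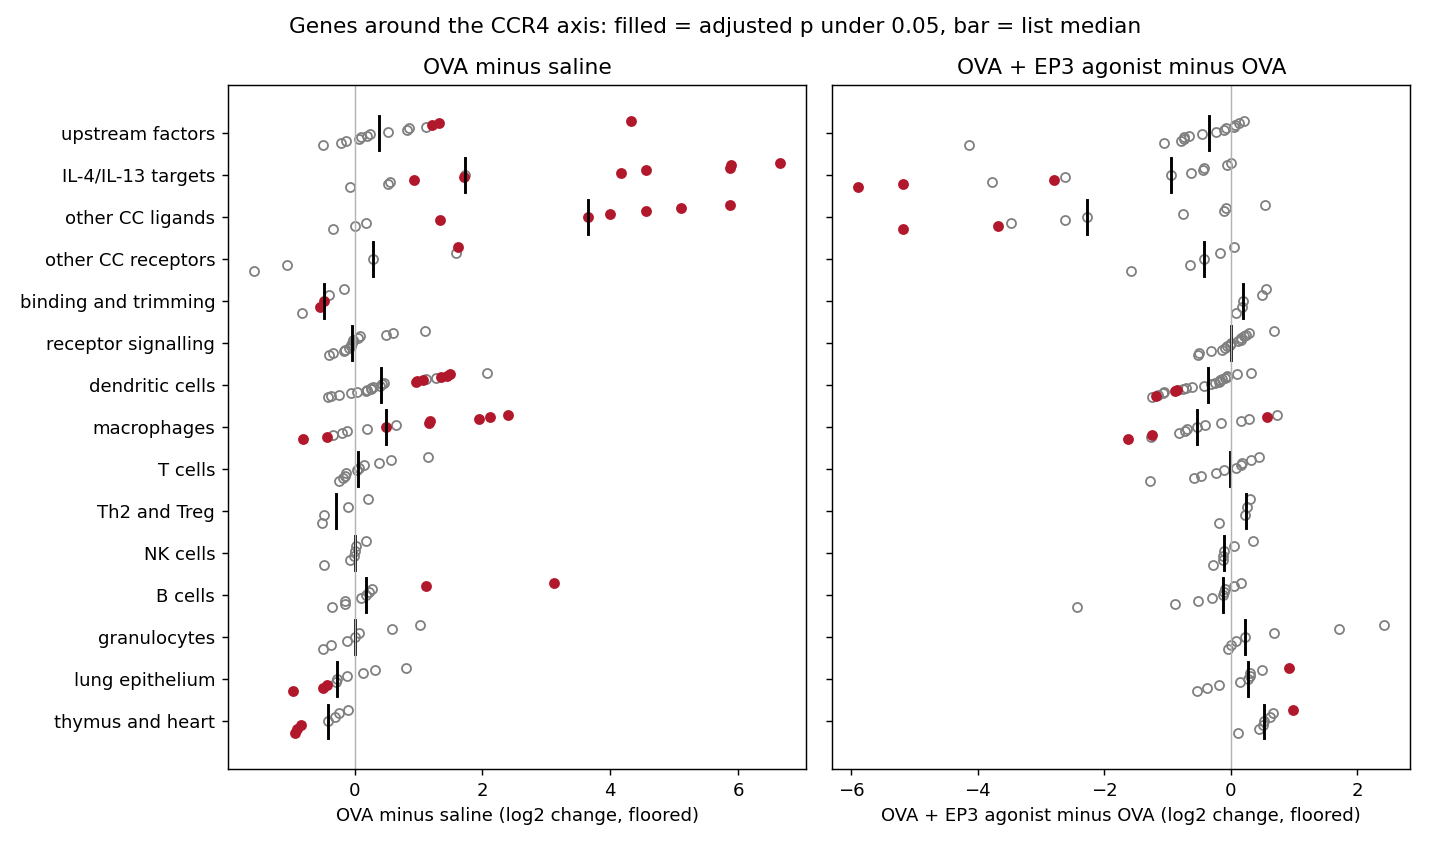
Log2 change (x axes) of each tested gene of 15 lists around the CCR4 axis (rows), for OVA minus saline (left) and OVA plus EP3 agonist minus OVA (right), which share the OVA arrays. Filled points passed an adjusted p of 0.05 and bars give list medians. On the left 7 of 11 tested interleukin-4 and interleukin-13 targets and 6 of 9 other CC ligands passed, and on the right 3 and 2 of them. Among all tested probe sets 9.49% passed on the left and 2.75% on the right. The size of changes that reach below the detection limit depends on the floor.

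Some markers of dendritic cells and macrophages, which make the ligands, changed in the same comparisons as Ccl17, and others did not. Of 24 dendritic cell markers on the array 22 were tested. In OVA against saline lung 6 rose and 0 fell, where 5.08% of all tested probe sets rose. In agonist against OVA lung 0 rose and 3 fell, where 1.5% of all tested probe sets fell. The summed intensity of the dendritic cell markers ran from 15228 to 19086 in agonist, from 21654 to 23459 in OVA and from 14830 to 16704 in saline lung. The OVA sums were above all others, and the brightest markers weigh most in them. In OVA lung these were Cd74, Cst3, H2-Aa, H2-Eb1 and H2-Ab1, with means of 7163, 4114, 3269, 2296 and 1724. Means of Zbtb46, Cd80 and Tnfsf4 were lower in OVA than in saline lung, at 120, 41.7 and 88.2 against 152, 55.3 and 104, without passing. H2-Ab1, an MHC class II chain of antigen-presenting cells, read 604, 797 and 916 with the agonist, 1704, 1740.2 and 1727 with OVA and 778, 634 and 463 with saline. Its log2 change was 1.5 for OVA against saline (adjusted p = 0.0123) and −1.18 for agonist against OVA (adjusted p = 0.0421). The rise was lost without OVA replicate 1 or 2, and with 1 array left out the fall passed only without agonist replicate 3.

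Itgax, the CD11c integrin of dendritic cells and alveolar macrophages, had log2 changes of 1.44 (adjusted p = 0.0308) and −1.15 (adjusted p = 0.0781) in these comparisons, and its rise was lost without saline replicate 1 or 2 or OVA replicate 1 or 2. Of 17 macrophage markers on the array 13 were tested. In OVA against saline lung 6 rose and 2 fell, where 5.08% of all tested probe sets rose and 4.42% fell. In agonist against OVA lung 1 rose and 2 fell, where 1.25% of all rose and 1.5% fell. The summed intensity of the macrophage markers ran from 12003 to 14339 in agonist, from 13675 to 14110 in OVA and from 10787 to 11611 in saline lung. The agonist and OVA groups thus overlapped. Lyz2 was the brightest of these markers and weighs most in the sums, with means of 6168 in agonist, 4163 in OVA and 5587 in saline lung. The overlap therefore does not describe the other markers. The 2 that fell with the agonist were C1qb and C1qa. C1qb had log2 changes of 2.40 (adjusted p = 0.00854) and −1.63 (adjusted p = 0.0363), by its brighter probe set. Its other probe set did not pass (adjusted p = 0.268 and 0.933). C1qa had changes of 2.11 (adjusted p = 0.00854) and −1.25 (adjusted p = 0.0421). Both rises passed with each array left out, and both falls only without agonist replicate 3. Lyz2, a lysozyme gene, ran against Ccl17, with log2 changes of −0.43 for OVA against saline (adjusted p = 0.0492) and 0.57 for agonist against OVA (adjusted p = 0.0444). Its fall was lost with any array but OVA replicate 3 left out, and its rise with any but OVA replicate 3 or agonist replicate 3. In whole lung, fewer cells of a type and less RNA per cell cannot be told apart, and the part of these cells in the Ccl17 and Ccl22 results was not tested.

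No tested marker of the cells that bear CCR4 passed in any comparison. Over all tested probe sets 9.49% passed for OVA against saline, 2.75% for agonist against OVA and 0.0758% for agonist against saline. With 10 and 4 markers tested, counts of 0 are near these shares and do not describe the cells. Of 17 T cell markers on the array 10 were tested and 0 passed, and 7 were below the limit on every array (Cd3e, Cd3g, Cd8a, Cd8b1, Cd5, Cd6 and Icos). The summed T cell intensity was 1245 to 1510 in agonist, 1338 to 1493 in OVA and 1282 to 1464 in saline lung, with overlapping groups. Thy1 had the largest T cell change between OVA and saline, 1.14 on the log2 scale (adjusted p = 0.0606). Of 14 markers of allergic and regulatory T cells 4 were tested and 0 passed, and 8 were below the limit on every array, Ccr8 and Il2ra among them. Their sums were 470.4 to 525 in agonist, 468 to 534 in OVA and 482 to 533 in saline lung.

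Markers of other cells a piece of lung can hold moved as well. Of 9 tested B cell markers 2 rose with OVA (Jchain and, by its brighter probe set, Blnk), and of 9 epithelial markers 3 fell, among them the club cell enzyme Cyp2f2 (log2 change −0.97). Of 7 tested heart and thymus markers 3 fell, among them the cardiac myosin Myh6 (log2 change −0.92). Among all tested probe sets 5.08% rose and 4.42% fell with OVA. Cyp2f2 and Myh6 rose in agonist against OVA lung, by 0.92 (adjusted p = 0.0356) and 0.98 (adjusted p = 0.0366) on the log2 scale. The other probe set of Blnk did not pass (log2 change 1.38, adjusted p = 0.383). The calls of Jchain, Blnk, Cyp2f2 and Myh6 were all lost without OVA replicate 1 and also without OVA replicate 2. The summed granulocyte intensity was 1922 to 5065 in agonist, 1581 to 1845 in OVA and 1623 to 1898 in saline lung. On agonist replicates 1, 2 and 3 S100a8 read 2281, 287 and 2026, and S100a9 read 1542, 128 and 1180.5. Their means were 342 and 117 in OVA and 325 and 115 in saline lung, so agonist replicate 2 lay near the other groups. Of 7 tested granulocyte markers 0 passed, near the 9.49% and 2.75% of all tested probe sets for OVA against saline and agonist against OVA. The part of these markers in the chemokine results was not tested.

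The list counts depended on single arrays. Over all lists 39 genes passed between OVA and saline and 12 between agonist and OVA. Of all tested probe sets 9.49% and 2.75% passed in these comparisons. With 1 array left out the list counts were 6 to 43 and 0 to 35. The fewest in both were without OVA replicate 1, shared in the second with OVA replicate 2, and the most were without agonist replicate 3. Between agonist and saline lung 0 genes of any list passed, near the 0.0758% of all tested probe sets that did. At an unadjusted limma p under 0.05 there were 611 of the 7920 tested probe sets (7.71%).

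Of the other neighbours of the ligand genes on chromosome 8 that were tested, none passed. Cx3cl1, the membrane-bound fractalkine gene that lies between Ccl22 and Ccl17, read 200.5, 199.7 and 154 with the agonist, 249, 211 and 219 with OVA and 199, 210.1 and 205 with saline. The 3 OVA arrays were the highest, by little. Its log2 change was 0.14 for OVA against saline (adjusted p = 0.480) and −0.30 for agonist against OVA (adjusted p = 0.194). On the far side of Ccl22, Arl2bp had log2 changes of −0.31 (adjusted p = 0.112) and 0.36 (adjusted p = 0.105). On the far side of Ccl17, Ciapin1 was below the limit in all groups, and Coq9 and Polr2c had log2 changes of 0.12 (adjusted p = 0.631) and −0.34 (adjusted p = 0.0701) between OVA and saline.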

How the data were processed

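The data are 1 table of intensities for 12488 probe sets on 9 Affymetrix arrays, 3 per group. The authors deposited intensity on a linear scale; the labels do not give what was subtracted or the software and scaling used. Each array was scaled to the mean of the arrays' 2% trimmed means (138.7 to 241.2 as deposited, factors 0.741 to 1.29), and 66 controls were dropped. The scaled intensities were then floored at the 20th percentile of all scaled values (3.10) and turned to log2. Probe sets with at least 3 of 9 arrays above the 40th percentile (44.7) were tested, 7920 in all. One linear model with 3 group means was fitted to all 9 arrays in limma 3.58.1 under R 4.3.3 (residual degrees of freedom 6, prior 1.69), and two-sided p-values were adjusted over the 7920 by the method of Benjamini and Hochberg, with a threshold of 0.05. The exact permutation test compares means of scaled intensity.

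Of the probe sets that are not controls, 10833 carry 1 gene symbol, 396 several and 1193 none, and 10817 symbols were found in RefSeq (GRCm38.p6, used for names, neighbours and promoter sequence). Lists take the brightest probe set per gene. The members and the 15 lists were chosen with earlier results of these data known. Named genes are the members, up to 4 genes per list and comparison with the largest change (passing ones first), 9 genes of the axis (Stat6, Il4ra, Irf4, Csf2ra, Csf2rb, Ccr8, Ackr2, Dpp4, Cx3cl1), the 6 probe sets most correlated with each member and the nearest genes on the array. Other genes, listed without values as having passed, not passed or lain below the limit, were named after their values were seen. So were the monocyte attractants picked from the 33 probe sets, and Cd74, Cst3, Zbtb46, Cd80 and Tnfsf4. Alternatives were other normalizations, floors, filters, priors and weights, the replicate number as a block, the 6 arrays compared and each array left out. The procedure was tested on simulated data.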

Additional observations from a re-analysis of the deposited data

How the results depend on the processing

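Ccl17 passed in both comparisons with OVA in all 10 alternatives other than leaving out arrays. Its log2 changes there were 3.67 to 9.15 in size, with adjusted p up to 0.00516. For agonist against saline it did not pass in any. Each alternative raised values below 0 to a common value, also the one without a floor. The agonist and saline arrays therefore stayed tied, and these fits are no check of their spread. The result for agonist against saline was fixed in advance by this tie. Ccl22 did not pass for agonist against OVA or saline in any alternative. For OVA against saline its log2 change was 0.60 and passed under the floor at the 40th percentile, the filter at the 60th and the intensity trend with robust prior; elsewhere adjusted p was 0.0506 (quantile normalization) to 0.102 (replicate block), and 0.45 to 0.75 was the range of its change with 1 array left out. Ccr4 was above the limit on 0 arrays throughout; its mean difference in intensity between agonist and OVA, 8.71, ran from −25.6 to 34.4 with 1 array left out (below 0 without OVA replicate 2 or agonist replicate 1), on values all below the floor. The change of Il4ra for agonist against OVA ran from −0.42 to 0.054 with 1 array left out, above 0 without agonist replicate 2.

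The count of probe sets for OVA against saline, 752, became 396 without a filter and 50 with the replicate block, and 80 to 857 with 1 array left out. For agonist against OVA, 218 became 361 (floor at the 40th percentile), 47 (no filter), 445 (filter at the 60th), 453 (intensity trend with robust prior), 498 (array weights), 14 (replicate block), 15 (the 6 arrays compared) and 7 to 526 (1 array left out). For agonist against saline, 6 became 3 (filter at the 60th), 2 (replicate block), 3 (the 6 arrays compared) and 5 to 16 (1 array left out). Genes of all lists that passed, 39 for OVA against saline, became 25 without a filter, 5 with the replicate block and 6 to 43 with 1 array left out. The 12 for agonist against OVA became 23 (floor at the 40th percentile, filter at the 60th and intensity trend with robust prior), 2 (no filter), 33 (array weights), 1 (replicate block and the 6 arrays compared) and 0 to 35 (1 array left out). The causes were not tested. Of the calls for OVA against saline 53.5% were higher, against 66.7% with no filter and 78% with the replicate block.

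The replicate numbers gave no clear sign of pairing, and the labels do not say whether they pair the samples. Deviations from group means correlated with r from −0.139 to 0.169 between same-numbered arrays (2 of 9 over 0.1) and from −0.154 to 0.149 between others (2 of 18). Between OVA and saline arrays the same-numbered r were 0.169, 0.112 and 0.0354, and the others ran from −0.154 to 0.0438. With the replicate block Ccl17 had adjusted p = 5.84e-05. Averaging a gene's probe sets was not run for the members, which have 1 each. The precision is limited by 3 arrays per group and, for Ccl17 and Ccr4, by signal below the detection limit.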
